A study of Mus musculus with 14 samples.

Results

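The aminoacyl-tRNA synthetases of the cytosol and of the mitochondria were examined in mouse liver under stress of the endoplasmic reticulum (ER). They were taken from a list of 36 gene symbols, 20 for cytosolic enzymes and 16 for mitochondrial enzymes (symbols ending in 2), matched to the gene names of the array and not to any measured value. A probe set named for 1 gene was found for 35 of the 36, that is 19 cytosolic and 16 mitochondrial genes, among 12085 genes tested. Dars had no such probe set named here, and Mars was found under its current symbol Mars1. Each gene was represented by its brightest probe set, and all 35 passed the filter on low signal, which asked for at least 3 arrays above an intensity of 41.5. Lars2 and Mars2 each had arrays at or below that intensity.

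A synthetase joins 1 amino acid to its tRNA and so makes the substrate that the ribosome uses. Most amino acids have a separate nuclear gene for the enzyme of the cytosol and for that of the mitochondrion, while Gars and Kars each supply both compartments. Several cytosolic enzymes are held together with the scaffold proteins encoded by Aimp1, Aimp2 and Eef1e1 in the multisynthetase complex. PERK, encoded by Eif2ak3, is an ER-resident kinase that phosphorylates the translation factor eIF2 when unfolded proteins accumulate. This lowers translation in general and favours that of the transcription factor ATF4, whose known targets include genes of amino acid supply, among them Asns and many cytosolic synthetases.

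Liver was taken from wild-type (WT) mice and from mice of the genotype lsPERK, the knock-out of the series, and 1 Affymetrix 3′ expression array was run per sample. Both genotypes received either tunicamycin, an inhibitor of N-linked glycosylation, at 1 mg/kg for 6 h, or 0.3% DMSO as control. In each genotype 3 arrays were run for DMSO and 4 for tunicamycin. For the DMSO groups no time is labelled, and no label gives an age or strain, the deleted exons, or the cells or promoter that drive the deletion. Nothing in the labels ties the replicates to separate animals. The p-values therefore measure the spread among the samples alone, which may in part be technical.

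The targeted gene Eif2ak3 read 240 to 443 on the WT control arrays against 127 to 157 on the lsPERK control arrays, and 1725 to 2420 against 239 to 316 after tunicamycin. Where its probe set lies relative to the deleted part is not given in the sources used here. The summed signal of 6 hepatocyte markers lay between 107600 and 118300 on all 14 arrays. Their probe sets are very bright, and quantile normalization gives all arrays nearly the same values there. The narrow range thus says little about hepatocyte content. The summed signal of 4 Kupffer cell markers ran from 4781 to 13580 in WT control and from 2704 to 8069 in WT tunicamycin liver, and from 4008 to 12790 and 4216 to 6941 in the lsPERK groups. Of the marker lists, 1 of 4 Kupffer, 2 of 4 endothelial, 1 of 4 stellate and 1 of 6 hepatocyte genes fell in WT liver with tunicamycin, where 26% of all genes tested were called lower, and none of 3 leukocyte or 3 cholangiocyte genes was called. In the lsPERK response 1 of 3 cholangiocyte genes was called higher (8.42% of all genes), and between the tunicamycin groups 1 hepatocyte (Apob) and 1 stellate gene (Reln) were higher in lsPERK liver (18.5% of all genes). The log2 ratio of 3′ to 5′ actin control signal, a sign of RNA quality, was 1.00 to 1.26 on the WT control, 0.66 to 1.21 on the WT tunicamycin, 0.58 to 1.04 on the lsPERK control and 0.59 to 0.78 on the lsPERK tunicamycin arrays. With that ratio as a covariate, 2 synthetase calls were lost, the WT changes of Mars1 (-0.39) and Yars2 (0.28). The part of the markers in the synthetase results was not tested. Arrays with Xist signal numbered 1 of 3 WT control, 1 of 4 WT tunicamycin, 2 of 3 lsPERK control and 2 of 4 lsPERK tunicamycin. Every group thus held arrays with and without that signal, so its arrays were not all repeats of 1 animal.

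In WT liver the cytosolic synthetases rose together with tunicamycin. At an adjusted p under 0.05 in limma (Benjamini-Hochberg over all genes tested), 17 of 19 were called higher and 1, Mars1, lower, while 20.7% of all genes tested were called higher and 26% lower (46.7% in either direction). The median change over the 19 genes was log2 0.98, beside -0.13 over all genes. Of the mitochondrial synthetases 4 of 16 were called higher, 2 lower and 10 not called, with a median of 0.06. These mitochondrial counts lie near or below the shares of all genes and do not set the list apart. In whole liver, fewer cells of a type and less RNA per cell cannot be told apart.

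**Figure D1:**
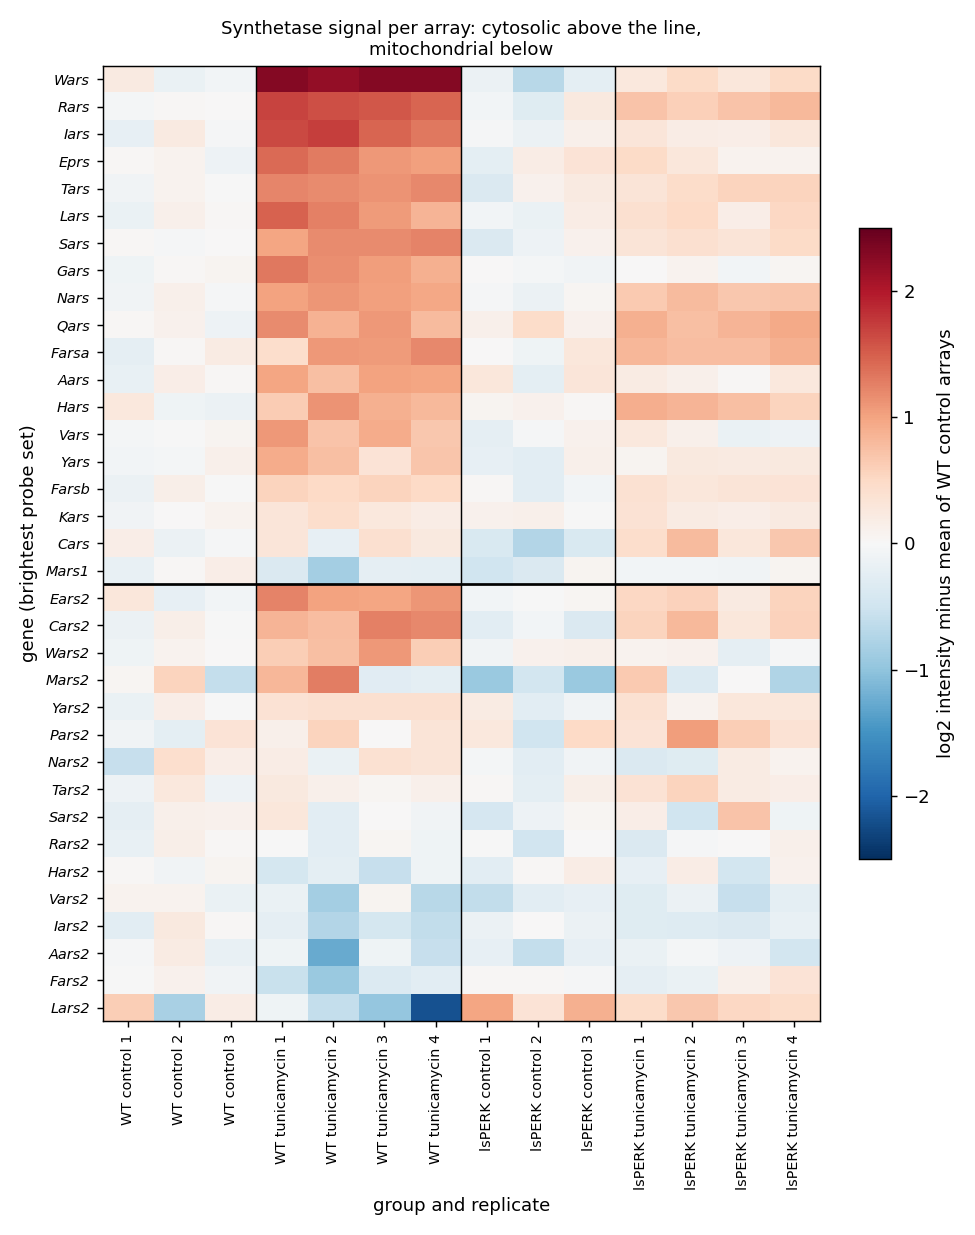
Each row is a synthetase gene (cytosolic above the line, mitochondrial below) and each column 1 array, coloured by its log2 intensity minus the mean of the WT control arrays. The WT tunicamycin columns are raised in most cytosolic rows and the lsPERK tunicamycin columns less so, while the mitochondrial rows show no shared colour in any group.

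The largest cytosolic change was that of Wars, the tryptophanyl-tRNA synthetase. Its intensity was 352, 269 and 288 on the WT control arrays and 1485, 1387, 1478 and 1481 on the WT tunicamycin arrays. The groups did not overlap, and the difference was log2 2.28 ± 0.14 (SE), a 4.84-fold rise (limma adjusted p = 3.44e-08). All 4 probe sets of Wars were called higher, by log2 1.68 to 2.45. Nars, which charges the tRNA for asparagine, read 3390, 3928 and 3553 in WT control and 7222, 7750, 7324 and 7109 in WT tunicamycin liver. The 7 arrays were again separated, with a change of log2 1.02 ± 0.07 (SE, adjusted p = 1.32e-07).

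Of the 8 enzymes held in the multisynthetase complex, 7 were measured, and 6 of these rose in WT liver, beside 20.7% of all genes. The median over the 7 was log2 1.16, beside -0.13 over all genes. Rars, for arginine, went from 909, 963 and 945 to 3008, 2878, 2758 and 2591, and Iars, for isoleucine, from 1016, 1374 and 1146 to 3694, 3854, 3200 and 2902. Neither gene's groups overlapped, and the changes were log2 1.58 ± 0.11 (SE, adjusted p = 1.59e-07) and 1.54 ± 0.12 (SE, adjusted p = 4.05e-07). Eprs, a single protein that charges the tRNAs for glutamate and proline, rose by log2 1.20, Lars, for leucine, by 1.16, and Qars, for glutamine, by 0.98. Kars, for lysine, rose least of the genes called, by log2 0.30 (adjusted p = 0.0144), and was not called without WT control replicate 1 (0.26) or in the arrays without Xist signal (0.21).

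The scaffold genes of the complex also rose. In WT control liver Aimp1 read 761 to 1024, Aimp2 566 to 667 and Eef1e1 549 to 902. In WT tunicamycin liver Aimp1 read 1380 to 1653, Aimp2 1368 to 1624 and Eef1e1 1787 to 2043. All 3 were called higher, by log2 0.76, 1.28 and 1.34, with no overlap between the groups, beside 20.7% of all genes called higher. With tunicamycin in lsPERK liver 2 of the 3 were called higher, with a median of log2 0.38, beside 8.42% of all genes.

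Of the 12 cytosolic enzymes outside the complex, 11 rose, with a median of log2 0.94, beside 20.7% of all genes called higher. Besides Wars and Nars, these were Tars (threonine, 1.18), Sars (serine, 1.15), Gars (glycine, 1.11), Farsa (a subunit of the phenylalanine enzyme, 0.94), Aars (alanine, 0.93), Hars (histidine, 0.86), Vars (valine, 0.85), Yars (tyrosine, 0.68) and Farsb (the other subunit of the phenylalanine enzyme, 0.52), all as log2 changes. Farsa rests on its brightest probe set: in the mean of its kept probe sets, 2 of them dim, its change was 0.01 and was not called. Cars, for cysteine, read 444, 359 and 390 in WT control and 486, 345, 521 and 468 in WT tunicamycin liver. These groups overlapped, and the change of log2 0.18 was not called (adjusted p = 0.397), although it was called in the values as deposited (0.75) and after median centring (0.46). By enzyme class, 8 of 10 class I and 9 of 9 class II cytosolic genes were called higher, with medians of log2 1.07 and 0.94; the classes were not compared by a test.

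Mars1, the methionine enzyme of the complex, was the 1 cytosolic gene called lower in WT liver. It read 989, 1155 and 1266 in WT control and 875, 628, 962 and 950 in WT tunicamycin liver. The groups did not overlap, and the change was log2 -0.43 (95% confidence interval -0.77 to -0.08, adjusted p = 0.0449), but it was 0.14, and not called, in the values as deposited. The call was lost in 9 of the 14 fits that left out 1 array, over which the value ran from -0.52 to -0.29. These were the fits without WT control replicate 2 or 3 (-0.41 and -0.34), WT tunicamycin replicate 1 or 2 (-0.45 and -0.29), lsPERK control replicate 2 (-0.43) or any lsPERK tunicamycin array (-0.42 or -0.43). In the RefSeq annotation (GRCm38.p6), Mars1 (chr10:127296221-127311786) and the stress gene Ddit3 (chr10:127290793-127296291) overlap by 71 bases at their ends.

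**Figure D2:**
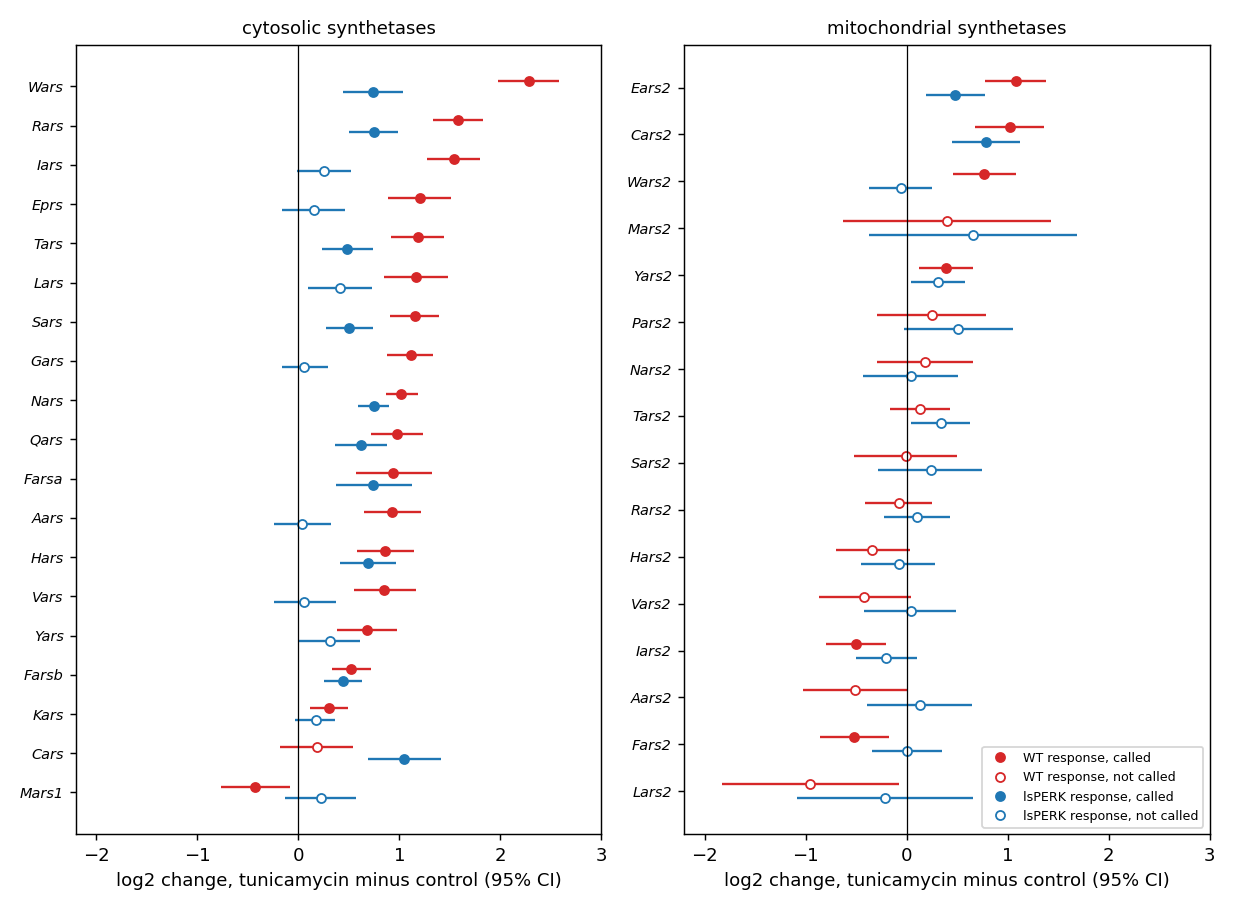
Points give the log2 change with tunicamycin in WT (red) and lsPERK (blue) liver for each synthetase, with 95% confidence intervals from limma; filled points were called. In the cytosolic panel the WT points lie to the right of the lsPERK points except for Cars and Mars1, and in the mitochondrial panel most points are open.

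Among the mitochondrial enzymes, those called higher in WT liver charge the tRNAs for glutamate, cysteine, tryptophan and tyrosine. Ears2 read 198, 141 and 157 in WT control and 387, 328, 323 and 352 in WT tunicamycin liver, a change of log2 1.08 ± 0.14 (SE, adjusted p = 2.44e-05). Cars2 went from 186, 227 and 203 to 366, 350, 487 and 470, a change of log2 1.02 ± 0.16 (SE, adjusted p = 0.000119). Wars2 went from 147, 168 and 158 to 241, 264, 336 and 242, a change of log2 0.77 ± 0.14 (SE, adjusted p = 0.000566). In all 3 genes every treated array exceeded every control array. Yars2 changed by log2 0.39 (adjusted p = 0.0198), and its call was lost without WT control replicate 1 (0.31) or 3 (0.39), in the arrays without Xist signal (0.32) and with the actin ratio as a covariate (0.28). All 4 genes belong to the class I enzymes. Of the mitochondrial genes, 4 of 9 in class I and 0 of 7 in class II were called higher in limma, beside 20.7% of all genes, and 1 class II gene, Fars2, had an unadjusted p under 0.05, in the other direction. The difference between the classes was not tested, and at that share of all genes a count of 0 of 7 says little.

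Fars2, for phenylalanine, read 969, 1049 and 925 in WT control and 668, 518, 778 and 814 in WT tunicamycin liver, a change of log2 -0.52 (adjusted p = 0.0171), but it was 0.06 in the values as deposited and -0.23 after median centring, and not called in either. Iars2, for isoleucine, changed by log2 -0.50 (adjusted p = 0.00881) with overlapping groups, and by 0.06 in the values as deposited, 0.23 in the mean of its probe sets and -0.23 after median centring, with no call in these 3. Neither was called without WT control replicate 2, where the values were -0.47 and -0.39. Lars2, for leucine, had the lowest mean change, log2 -0.96, but its WT tunicamycin arrays spread from 40.2 to 169 and it was not called (adjusted p = 0.0684). It was called without WT control replicate 2 (-1.36) or WT tunicamycin replicate 1 (-1.24). Without WT tunicamycin replicate 3, Aars2 (-0.65) and Vars2 (-0.57) were called as well, and the mitochondrial genes called lower then numbered 4. A second, dimmer probe set of Vars2 was called lower with all arrays (log2 -1.0, adjusted p = 0.0021 over all kept probe sets).

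The remaining mitochondrial genes, Hars2, Mars2, Nars2, Pars2, Rars2, Sars2 and Tars2, changed by log2 -0.34 to 0.40 and were not called. The mean signal of Mars2 lay under the filter's intensity in every group, so its change of 0.40 (95% confidence interval -0.63 to 1.43) is between levels that the array hardly measured. For 13 amino acids the list held 1 gene of each kind. In WT liver the cytosolic change, taken with its sign, lay above the mitochondrial change in 11 of these, cysteine and methionine being the others. In 8 of the 13 pairs the cytosolic gene rose and the mitochondrial gene was not called, in 2 (tryptophan and tyrosine) both rose, and in 1 (isoleucine) the cytosolic gene rose while the mitochondrial gene fell. In the cysteine pair Cars2 rose and Cars was not called. With tunicamycin in lsPERK liver the cytosolic change lay above the mitochondrial change in 10 of the 13 pairs.

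**Figure D3:**
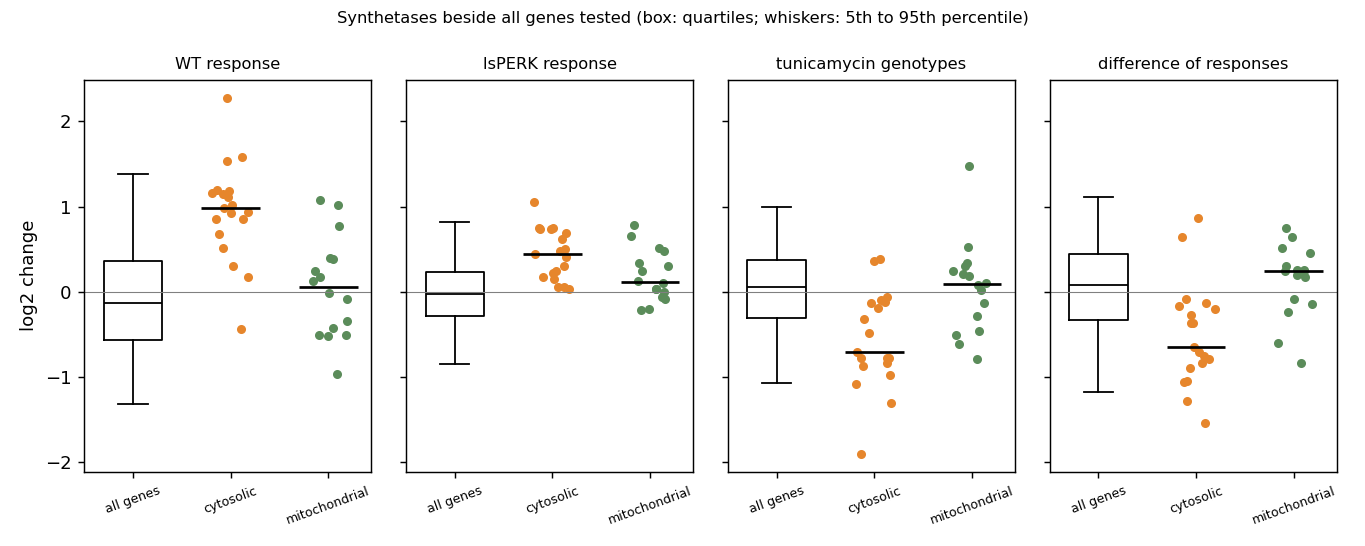
Log2 changes of all genes tested (box, quartiles; whiskers, 5th to 95th percentile) beside each cytosolic and mitochondrial synthetase (points; bar, median) in 4 comparisons. The cytosolic median is 0.98 in the WT response and 0.44 in the lsPERK response, beside -0.13 and -0.02 for all genes.

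The ATF4 protein with its C/EBP partners is known to bind composite elements, and promoter sequence was therefore searched for the letters TGATGNAA on both strands, from 250 bases before to 50 bases after each RefSeq start (GRCm38.p6). Of 13 cytosolic genes with such a window 5 held the letters (Aars, Gars, Iars, Tars and Yars), against 0 of 14 mitochondrial genes and 4.51% of the 27025 genes with a window in RefSeq. Windows were not found for Cars, Hars, Lars, Nars, Rars, Vars, Wars, Hars2 and Pars2. The stretches are printed 5′ to 3′ on the gene's strand to show the match in its place, with the matching letters in capitals (TTNCATCA where the match is on the opposite strand). That of Asns, a known ATF4 target, is added for comparison.
Gars, 30 bases before the start, chr6:55037955-55037994, plus strand: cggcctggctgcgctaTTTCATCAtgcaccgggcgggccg
Tars, 15 bases before the start, chr15:11399659-11399689, minus strand: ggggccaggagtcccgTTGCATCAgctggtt
Aars, 112 bases before the start, chr8:111033714-111033753, plus strand: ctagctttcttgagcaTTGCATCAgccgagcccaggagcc
Aars, from transcript base 10, chr8:111033843-111033866, plus strand: gggtcactTTTCATCAgagcgctc
Iars, from transcript base 8, chr13:49682129-49682152, plus strand: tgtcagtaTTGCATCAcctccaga
Yars, from transcript base 4, chr4:129189898-129189921, plus strand: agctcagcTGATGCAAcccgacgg
Asns, 23 bases before the start, chr6:7693210-7693248, minus strand: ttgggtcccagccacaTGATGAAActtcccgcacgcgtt
A match is a description of these letters and not a bound site, and 2 of 5 stress genes looked up (Asns and Trib3) held it. The 5 cytosolic genes with the letters had WT changes of log2 0.68 to 1.54, and all 5 were called higher, beside 20.7% of all genes. Of the 7 measured genes with a window and no match (Eprs, Farsa, Farsb, Kars, Mars1, Qars and Sars), 6 were called higher and 1 lower, with changes of -0.43 to 1.20. The 0 matches among mitochondrial promoters say only that these letters are not in those windows.

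In lsPERK liver 10 of the 19 cytosolic synthetases were called higher with tunicamycin and 0 lower, beside 8.42% and 7.27% of all genes tested (15.7% in either direction), and the median change was log2 0.44, beside -0.02 over all genes. All 19 changes lay above 0, as did 5791 of all 12085 genes tested. At an unadjusted p under 0.05 limma gave 12 of the 19, beside 3422 of all 12085 genes. The mitochondrial genes gave 2 called higher (Cars2 and Ears2) and 0 lower of 16, with a median of 0.12. At an unadjusted p under 0.05 there were 4, and these mitochondrial counts lie near the shares of all genes. Deviations of same-numbered lsPERK control and tunicamycin arrays correlated at 0.24 to 0.35. In a fit of the 7 lsPERK arrays with the replicate number as a block, chosen after seeing the data, 6 cytosolic and 1 mitochondrial genes were called higher. Farsb (0.44), Sars (0.47), Tars (0.46), Wars (0.70) and Ears2 (0.45) were those lost there. The cytosolic count was 4 in the values as deposited, where Farsb, Hars, Qars, Sars, Tars and Wars were lost, and 3 in the arrays without Xist signal, where Farsa, Farsb, Hars, Rars, Sars, Tars and Wars were lost. Cars2 and Ears2 were not called in either.

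The cytosolic gene with the largest rise in lsPERK liver was Cars. It read 303, 237 and 304 on the lsPERK control arrays and 539, 684, 481 and 631 on the lsPERK tunicamycin arrays, a change of log2 1.05 ± 0.17 (SE, adjusted p = 0.000751), with no overlap. Nars and Rars rose by log2 0.75 each, Farsa and Wars by 0.74, Hars by 0.69, Qars by 0.62, Sars by 0.50, Tars by 0.48 and Farsb by 0.44. Sars was not called without lsPERK tunicamycin replicate 4 (0.35), and Farsa was not called without lsPERK control replicate 2 (0.66). In the mean of probe sets Farsa (0.98), Farsb (0.33) and Qars (0.42) were not called, and Lars was called after median centring (0.55). For Aars, Gars and Vars the changes were log2 0.04, 0.06 and 0.06 (adjusted p = 0.889, 0.748 and 0.827).

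Of the mitochondrial genes, Cars2 read 171, 194 and 159 in lsPERK control and 300, 357, 250.1 and 305 in lsPERK tunicamycin liver. Its change of log2 0.79 ± 0.16 (SE, adjusted p = 0.00373) came with no overlap between the groups. Ears2 went from 156, 162 and 169 to 234, 244, 192 and 241, a change of log2 0.48 (adjusted p = 0.0298). That call was lost in 5 of the 14 fits without 1 array, namely lsPERK control replicates 1 (0.46) and 2 (0.49) and lsPERK tunicamycin replicates 1 (0.47), 2 and 4 (both 0.45). Yars2 (0.31, adjusted p = 0.12) was called without lsPERK control replicate 1 (0.44).

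Without tunicamycin the genotypes gave no call. In limma 0 of 35 synthetases, and 0% of all genes tested, were called between lsPERK and WT control liver. The targeted gene Eif2ak3 was not called either, although its control groups did not overlap. The lack of calls therefore does not show equal levels. At an unadjusted p under 0.05 limma gave 512 of all 12085 genes and 2 of the synthetases. These were Cars (log2 -0.50 in lsPERK relative to WT control, unadjusted p = 0.0139, adjusted p = 0.992) and Wars (-0.36, unadjusted p = 0.0316, adjusted p = 0.992). The other kept probe sets of Wars gave 0.06, -0.1 and 0.07, so its value rests on the brightest. The cytosolic median was -0.04 and the mitochondrial median -0.07, but both were above 0 in the values as deposited (0.28 and 0.26, with 0.30 over all genes).

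Under tunicamycin 12 of 19 cytosolic genes were lower in lsPERK than in WT liver and 0 were higher, beside 16.8% and 18.5% of all genes tested (35.3% in either direction). The median was log2 -0.70, beside 0.05 over all genes. Wars read 362, 422, 366 and 421 in lsPERK tunicamycin liver, against 1387 to 1485 in WT tunicamycin liver, a difference of log2 -1.90 ± 0.13 (SE, adjusted p = 2.58e-07). Iars read 1452, 1334, 1309 and 1422, against 2902 to 3854 (log2 -1.30 ± 0.11, SE, adjusted p = 2.11e-06), and Gars 894, 949, 849 and 920.4, against 1653 to 2228 (log2 -1.08 ± 0.10, SE, adjusted p = 2.33e-06). None of these 3 genes' groups overlapped. The other genes called lower were Eprs, Rars, Vars, Aars, Lars, Sars, Tars, Yars and Nars, by log2 -0.97 to -0.32. Nars was not called in the values as deposited (-0.34) or after median centring (-0.25), nor Yars in the arrays without Xist signal (-0.42). The scaffold genes Aimp1, Aimp2 and Eef1e1 were lower too, by log2 -0.54, -0.85 and -1.12.

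Of the mitochondrial genes, 3 of 16 were lower in lsPERK tunicamycin liver (Wars2, log2 -0.79; Ears2, -0.61; Cars2, -0.46) and 2 higher (Lars2, 1.48; Fars2, 0.53). Of all genes tested 16.8% were called lower and 18.5% higher, so these counts do not set the mitochondrial list apart. The Cars2 call was lost without WT tunicamycin replicate 3 (-0.38) or 4 (-0.40) or lsPERK tunicamycin replicate 3 (-0.37), and that of Ears2 in the mean of its probe sets (-0.34). The Fars2 call was lost in the values as deposited (0.29), after median centring (0.38) and in the mean of its probe sets (0.39). Lars2 read 169, 121, 93.3 and 40.2 in WT tunicamycin liver and 249, 288, 262 and 249 in lsPERK tunicamycin liver. These groups did not overlap (adjusted p = 0.00712), and the spread lay among the WT arrays. The mitochondrial median of log2 0.09 was -0.11 in the values as deposited, -0.02 without WT tunicamycin replicate 2 and 0.18 without WT tunicamycin replicate 1, so it has no settled sign.

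**Figure D4:**
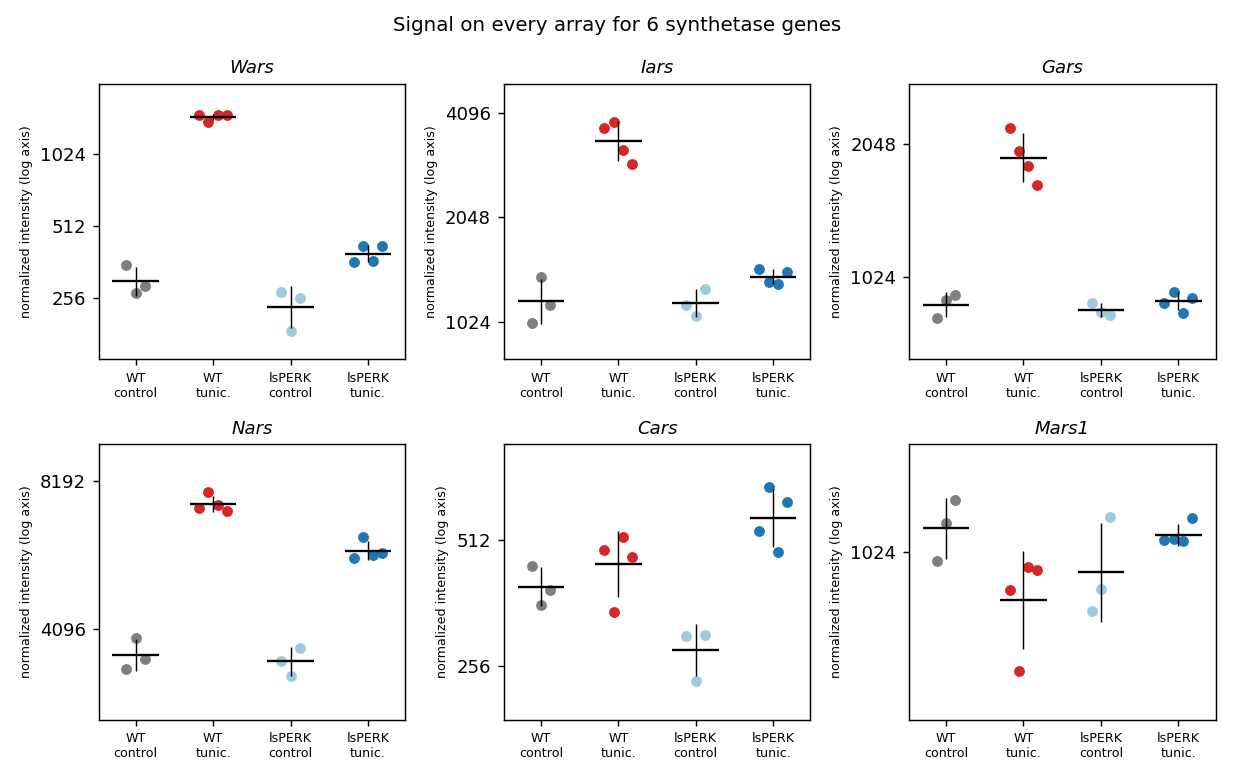
Normalized intensity (log axis) on each array for 6 cytosolic synthetase genes; horizontal bars are group means of log2 values and vertical bars 1 SD. In Wars, Iars and Gars the WT tunicamycin points lie above those of every other group, in Nars both tunicamycin groups lie above both control groups, in Cars the lsPERK tunicamycin points lie above the lsPERK control points, and Mars1 is lower in WT tunicamycin liver (this fall is not seen in the values as deposited, 0.14).

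Whether the response itself differed between the genotypes was tested as the lsPERK response minus the WT response. Of 19 cytosolic genes the difference was below 0 and called in 10 and above 0 and called in 1, beside 9.67% and 10.2% of all genes tested (19.9% in either direction), and the median was log2 -0.64, beside 0.08 over all genes. The genes with a smaller response in lsPERK liver were Wars (-1.54 ± 0.20, SE, adjusted p = 0.000212), Iars (-1.28 ± 0.17, SE, adjusted p = 0.000289), Eprs (-1.06), Gars (-1.04), Aars (-0.89), Rars (-0.83), Vars (-0.79), Lars (-0.75), Tars (-0.70) and Sars (-0.64). The call of Lars was lost without WT control replicate 1 (-0.67) or lsPERK control replicate 3 (-0.65) and in the arrays without Xist signal (-0.91), and that of Aars after median centring (-0.79). Within the complex 4 of 7 genes (Rars, Iars, Eprs and Lars) were called below 0 and outside it 6 of 12, with medians of -0.75 and -0.51. Of the 3 scaffold genes, 2 were called below 0.

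The cytosolic genes fell into several patterns of calls, which describe the tests and not classes of genes. Aars, Eprs, Gars, Iars, Lars and Vars rose in WT liver, were not called in lsPERK liver, and differed between the genotypes. Rars, Sars, Tars and Wars rose in both, by less in lsPERK liver. Farsa, Farsb, Hars, Nars and Qars rose in both with no difference called. For these 5 the difference was log2 -0.20 (95% confidence interval -0.73 to 0.33), -0.08 (-0.36 to 0.19), -0.17 (-0.57 to 0.23), -0.27 (-0.50 to -0.05, adjusted p = 0.0776) and -0.36 (-0.72 to 0.00), intervals that all reach below 0 and so do not show equal responses. Farsa was called in the values as deposited (-0.82). Nars was called without WT control replicate 2 (-0.33) and in the mean of its probe sets (-0.49), and its second probe set was called with all arrays (-0.71, adjusted p = 0.00698 over all kept probe sets). Kars and Yars rose in WT liver and were called neither in lsPERK liver nor in the difference.

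Among the 5 cytosolic genes with the promoter letters shown above, the difference was called in 4 (Aars, Gars, Iars and Tars), and in Yars it was log2 -0.37 (adjusted p = 0.224). Among the 7 measured genes with a window and no match it was called in 2, Eprs and Sars. Of all genes tested 9.67% had a called difference below 0. The medians were -0.89 and -0.20. The split leaves out the genes without a window. Of these Wars, Rars, Vars and Lars were called below 0, Cars above 0, and Hars and Nars were not called. The split is of few genes and was not tested.

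Cars was the 1 cytosolic gene whose response was larger in lsPERK liver, by log2 0.87 ± 0.24 (SE, adjusted p = 0.0198). Its lsPERK control arrays (237 to 304) all lay below its WT control arrays (359 to 444). The difference was 0.26 in the values as deposited, 0.67 after median centring, 0.47 in the arrays without Xist signal and 0.75 without lsPERK control replicate 2, and was not called in any of these. For Mars1 the difference was 0.65 (adjusted p = 0.0634), and it was called without lsPERK control replicate 3 (0.81), with Xist signal as a covariate (0.62) and with the replicate block (0.65).

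Of the mitochondrial genes, Wars2 (log2 -0.83 ± 0.20, SE, adjusted p = 0.0112) and Ears2 (-0.60, adjusted p = 0.0465) responded less in lsPERK liver, and 0 of 16 responded more. Of all genes 9.67% had a called difference below 0 and 10.2% above 0, so these counts do not set the mitochondrial list apart. The Ears2 call was lost in 13 of the 14 fits without 1 array, that is in all but the fit without WT control replicate 1, with values of -0.49 to -0.74 over the 14, and neither gene was called in the arrays without Xist signal. Wars2 read 148, 169 and 171 in lsPERK control and 166, 169, 135 and 154 in lsPERK tunicamycin liver, groups that overlapped. The mitochondrial median was 0.25 and turned to -0.33 in the values as deposited; over all genes it was -0.42 there. By their brightest probe sets the 2 tryptophan enzymes, Wars and Wars2, thus both rose in WT liver and both differed between the genotypes. The second kept probe set of Wars2 was called higher in WT liver (0.65). Its difference was not called (-0.51, limma adjusted p = 0.294 over all kept probe sets). Of the 13 pairs of cytosolic and mitochondrial genes this pair was alone in having both differences called. Wars2 was the only mitochondrial gene of those pairs with a called difference.

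Atf4 itself read 2180 to 2359 in WT control and 8089 to 8519 in WT tunicamycin liver (log2 1.86, adjusted p = 1.64e-06). In the lsPERK groups it read 2012 to 4016 and 2400 to 3204 (log2 0.07, adjusted p = 0.851), and the difference of responses was log2 -1.79 (adjusted p = 0.000334). The signal is that of the mRNA, and the protein was not measured here.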

How the data were processed

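The values the authors deposited are linear intensities, 1 for each probe set of an array. The submitters' processing notes name MAS5 and GCOS, Affymetrix software that turns probe signals into such values, without versions, and the scaling is not given in the sources used here. The median deposited intensity of an array lay between 34.6 and 53.5, so log2 intensities were quantile normalized after 64 control probe sets were removed, and intensities are printed on that scale. Probe sets above the pooled median (log2 5.37) on at least 3 arrays were kept, and each of 12085 genes took its brightest. Probe sets with several genes (932) or none (9160) were left out. Levels are not compared between genes.

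Group means of all 14 arrays were fitted with limma 3.58.1 (R 4.3.3; lmFit, eBayes with trend, 10 residual degrees of freedom) in 5 two-sided contrasts, with Benjamini-Hochberg adjustment over all genes and calls at 0.05. Every adjusted p is from limma. The procedure was tested on simulated data. The rule named all listed synthetases and a fixed set of partner genes; partners and cell type markers that the text does not name enter as counts. Members and lists were chosen with earlier results of these data known, so lists carry counts and medians and no test. Sequences and positions come from RefSeq (GRCm38.p6). The number of arrays limits the precision.

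Replicate numbers carry no stated litter or day. Deviations of same-numbered arrays correlated between lsPERK control and lsPERK tunicamycin at 0.27, 0.24 and 0.35, and between the WT groups at -0.25, -0.37 and 0.16. Between the genotypes they correlated at 0.31, -0.20 and 0.32 for the controls and at -0.14, 0.42, 0.24 and 0.19 for tunicamycin. A block of the lsPERK arrays alone was added for the lsPERK response, and the block over all arrays was run as an alternative for every comparison. Alternatives were values as deposited, median centring, other filters and a floor, no trend, the mean of a gene's probe sets, the 3′ to 5′ actin ratio or Xist signal as a covariate, arrays without Xist signal, the replicate block, and each array left out. Figures were drawn with matplotlib 3.10.9 in Python 3.11.15.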

Additional observations from a re-analysis of the deposited data

Results flagged for a closer look

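Of 70 groups of 4 arrays tested for an array far from the others (35 genes in 2 groups), 6 held one, and chance gives about 1 in 20. In WT tunicamycin liver, replicate 1 was low for Farsa (328, the others 510.0 to 557) and Yars2 (458, the others 471 to 474), and replicate 2 was low for Aars (5366, the others 6305 to 6466) and Wars (1387, the others 1478 to 1485). In lsPERK tunicamycin liver, replicate 1 was low for Yars (464, the others 517 to 521) and replicate 4 was high for Mars1 (1178, the others 1070 to 1080).

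The tunicamycin response differed between the genotypes, by the test of the difference in limma, for 13 synthetases. The response was smaller in lsPERK liver for Wars (log2 -1.54), Iars (-1.28), Eprs (-1.06), Gars (-1.04), Aars (-0.89), Rars (-0.83), Wars2 (-0.83), Vars (-0.79), Lars (-0.75), Tars (-0.70), Sars (-0.64) and Ears2 (-0.60), and larger for Cars (0.87).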

How the results depend on the processing

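Over 26 alternatives, 40 of the 66 calls among 175 gene and comparison pairs were kept throughout, and the cytosolic counts called higher in the WT response, lower in the tunicamycin comparison and lower in the difference stayed within 1.5 times their value. The single cytosolic genes called the other way, Mars1 in the WT response and Cars in the difference, were each lost under several alternatives. In the values as deposited, the median of all genes moved to log2 0.30 in the WT response (83.7% of calls higher instead of 44.2%), -0.07 in the lsPERK response, 0.30 between the controls, -0.11 between the tunicamycin groups (26.5% instead of 52.4%) and -0.42 in the difference (6.79% instead of 51.3%). Beside these, the cytosolic medians were 1.49 (WT), 0.28 (controls), -0.83 (tunicamycin) and -1.11 (difference), and the mitochondrial medians 0.59, 0.26, -0.11 and -0.33. There 4 cytosolic genes were called higher in the lsPERK response, 0 mitochondrial genes were lower in the WT response or higher in the lsPERK response, and 1 was higher between the tunicamycin groups. The WT falls of Mars1 (0.14), Fars2 (0.06) and Iars2 (0.06) reversed, the last also in the mean of probe sets (0.23).

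Median centring gave cytosolic medians of 1.20 (WT) and 0.57 (lsPERK), mitochondrial medians of 0.30 (WT) and 0.08 (difference), 0 mitochondrial genes lower in the WT response, 1 higher between the tunicamycin groups, and 60.7%, 71.7%, 37.3% and 35.6% of all calls higher in the WT response, the lsPERK response (53.7% in the main analysis), the tunicamycin comparison and the difference. With no filter, with the mean of probe sets and with the replicate block over all arrays, 1 mitochondrial gene was higher in the lsPERK response and 1 was lower in the difference; with the mean of probe sets 1 was higher between the tunicamycin groups. The block of the lsPERK arrays alone gave 6 cytosolic and 1 mitochondrial calls in that response. In the arrays without Xist signal, 3 cytosolic and 0 mitochondrial genes were higher in the lsPERK response and 0 mitochondrial genes lower in the difference, with cytosolic medians of 0.30 (lsPERK), 0.09 (controls), -0.62 (tunicamycin) and -0.81 (difference) and a mitochondrial median of 0.06 in the difference. The causes were not tested.

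Without 1 array, mitochondrial calls ran from 1 to 4 lower in the WT response, 1 to 2 higher in the lsPERK response and 1 to 2 lower in the difference. Medians ran from -0.12 to 0.09 (mitochondrial, WT), 0.36 to 0.51 (cytosolic, lsPERK), -0.12 to 0.02 (cytosolic, controls) -0.76 to -0.53 (cytosolic, difference) and -0.02 to 0.18 (mitochondrial, tunicamycin comparison). Probe sets near the filter's intensity, such as that of Mars2, give little information.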

Other observations

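Genes around the charging of tRNA gave a mixed picture in WT liver, from lists named with earlier results known. Trnt1, which adds the CCA end to tRNAs of both compartments, read 262 to 393 in WT control and 950 to 1258 in WT tunicamycin liver, a rise of log2 1.82 (limma adjusted p = 8.98e-07), and 332 to 416 and 379 to 524 in the lsPERK groups. Its difference of responses was log2 -1.56 (adjusted p = 0.000482). Elac2, which trims the 3′ end of tRNA precursors, rose by log2 0.48 in WT liver.

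In mitochondria, the tRNA for glutamine is first charged with glutamate by Ears2 and then converted by an amidotransferase. While Ears2 rose in WT liver, the subunit genes of that enzyme did not move together. Gatc read 542 to 672 in WT control and 882 to 1024 in WT tunicamycin liver (log2 0.67, adjusted p = 0.000112). Gatb read 361 to 432 and 203 to 312 (-0.60, adjusted p = 0.00213), with no overlap in either gene, and Qrsl1 was not called. Mtfmt, which formylates the initiator methionyl-tRNA of mitochondria, read 284 to 422 and 135 to 190 (log2 -1.17, adjusted p = 7.66e-05). In lsPERK liver none of Gatc, Gatb and Mtfmt was called (0.67, -0.60 and -1.17 in WT against -0.16, -0.03 and -0.11). Each of their differences of responses was called (-0.83, 0.57 and 1.06), and that of Qrsl1 was not. Of all genes tested 9.67% had a called difference below 0 and 10.2% above 0. Among 5 elongation factor genes, 1 rose (Eef1b2, log2 0.22) and 1 fell (Tufm, the mitochondrial factor, -0.40), with Eef1a1, Eef1d and Tsfm not called, and among 6 synthetase-like genes Prorsd1 rose (0.76) and Dtd1 fell (-0.78), with Tarsl2, Aarsd1, Sepsecs and Pstk not called. With 20.7% of all genes called higher and 26% lower in that response, these counts do not set either list apart. The alternatives were not run for these partner genes.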
